A study of Homo sapiens with 16 samples.

Results

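The change in open chromatin between 1 h and 2 h of dTAG47 was measured by setting the 2 libraries of Rh30 cells treated for 2 h directly against the 2 libraries of cells treated for 1 h. These were 4 of the 16 ATAC-seq libraries of the series, all from the experiment called 6211. Every one of the 40844 regions counted in that experiment was compared, and the 250 regions between 57 and 59 Mb of chromosome 12 are given apart. Both groups received 500 nM dTAG47. The DMSO group (2 libraries, with no duration in the labels) and the 0.5 h group (2 libraries, 500 nM) of the same experiment are given as background levels. All these cells, those in DMSO included, carried PAX3-FOXO1 with an FKBP tag, and the labels do not say whether the tagged cells were a single clone. A separate experiment, 6086, had 2 libraries each of 2, 4 and 24 h of 500 nM dTAG47 and of DMSO, and shared no library with the step.

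Rh30 is a cell line of fusion-positive rhabdomyosarcoma, a childhood tumour of cells that resemble early muscle. PAX3-FOXO1 joins the DNA-binding domains of PAX3, a transcription factor of muscle precursors, to the activating part of FOXO1, and the fusion is known for holding distant enhancers open and active in these tumours. dTAG47 couples an FKBP-tagged protein to a ubiquitin ligase, so that the proteasome degrades it. In ATAC-seq a transposase cuts and tags accessible DNA, and the number of reads in a region follows how open it was over the whole culture, so fewer cells with an open region and a less open region in every cell cannot be told apart. The comparison asks which regions were still changing in the second hour of treatment, as opposed to those that had already changed in the first. How much of the fusion was left at each time was not measured in these data, so its loss and other effects of dTAG47 cannot be told apart.

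Levels are given in CPM, the read count of a region scaled so that every library has the same TMM-adjusted total. The 2 h libraries A and B held 11777248 and 9934147 reads in regions, against 13985582 and 18275976 in the 1 h libraries A and B, so the later time was sequenced less deeply. Across regions the Spearman correlation of the replicate libraries was 0.966 at 2 h and 0.969 at 1 h. A region was called at a Benjamini-Hochberg adjusted p under 0.05 in edgeR's quasi-likelihood test over all 40844 regions. Whether the paired libraries of a group are separate cultures is not in the labels, and the p-values therefore cover the spread between these libraries, possibly a technical one. Regions are named by position on hg19.

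Few regions passed the test for this hour, and most of the gains lay in the stretch of chromosome 12 while the losses lay elsewhere. Of the 40844 regions, 262 (0.641%) were called, of which 129 (0.316%) were lower and 133 (0.326%) were higher at 2 h than at 1 h. The stretch held 112 of the 133 gains (84.2%) while it held 0.612% of the regions, and it held 0 of the losses in edgeR and in DESeq2 (1 region lower at an unadjusted p under 0.05 in each). Outside it, 129 of 40594 regions were lower (0.318%) and 21 were higher (0.0517%). The losses were modest, with a median log2 change of -0.61 and a range of -1.02 to -0.34, and 1 of the 129 was at least 2-fold. The 21 gains outside the stretch had a median of 1.08, and 14 of them were at least 2-fold. In each called region both 2 h libraries lay on the same side of both 1 h libraries, while 18.7% of all regions had both 2 h libraries below and 18.2% above. The median log2 change over all regions was -0.0011, near the 0 that the scaling assumes, so a uniform change across regions would not be seen.

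**Figure D1:**
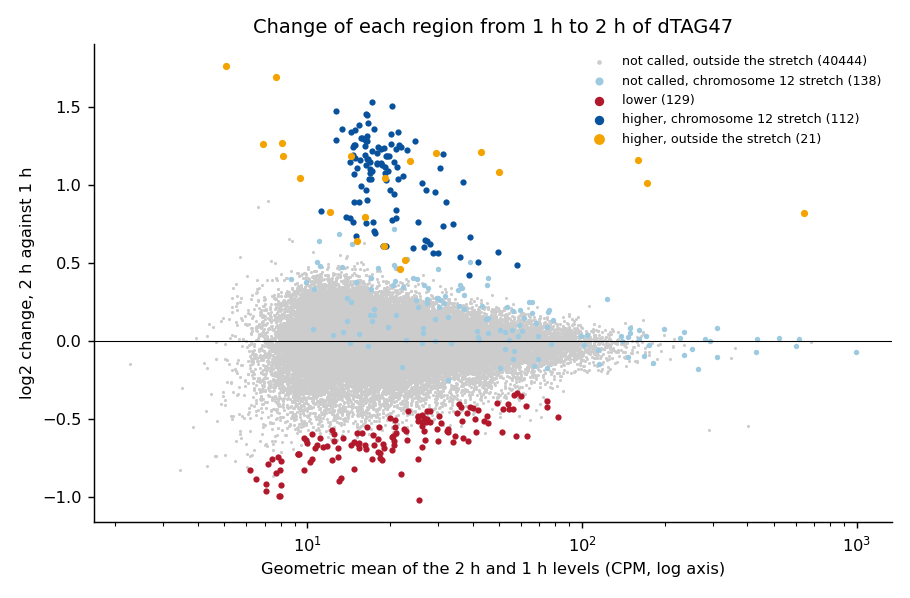
Log2 change of 2 h against 1 h (vertical axis) by the geometric mean of the 2 h and 1 h levels (horizontal axis, CPM on a log scale) for the 40844 regions of experiment 6211, with called regions coloured by direction and by place. The 129 losses reach down to -1.02, while the gains, 112 of 133 inside the chromosome 12 stretch, reach 1.76.

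These counts rest on few libraries. Without 2 h library B, 4 regions were lower and 0 were higher in edgeR's test, with 1848 regions at an unadjusted p under 0.05 against 3512 with all libraries. Without 1 h library B the counts were 21 lower and 1 higher, and without 1 h library A they were 45 and 115. Without 2 h library A, 272 regions were lower and 148 higher, and 70 of the 129 losses were among the 272. Each DMSO library left out brought the losses to 335 or 357, and each 0.5 h library left out brought them to 69, although neither group is in the comparison, since the fit pools the spread of all groups. DESeq2 called 43 losses, all 43 among the 129, and 25 gains. The 4 losses that remained without 2 h library B were chr6:44628192-44628592, chr1:36071004-36071404, chr1:59881491-59881891 and chr1:60180719-60181119, chosen here for that property after their values were seen.

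The deepest losses of the step continued a decline that was already visible at 1 h. The region with the lowest log2 change was chr6:44628192-44628592, with 18.1 and 17.7 CPM at 2 h, against 36.2 and 36.4 CPM at 1 h. This is a log2 change of -1.02 with a standard error of 0.10 (edgeR adjusted p = 1.0e-05), or 2.03-fold less. The 0.5 h libraries had 39.4 and 42.4 CPM and the DMSO libraries 62.3 and 62.0 CPM, so no group overlapped another, and the loss of the second hour was larger on the log2 scale than the -0.78 of 1 h against DMSO. The 8 deepest losses were chosen for a low step, and both changes use the same 1 h libraries. Setting their sizes side by side, here and in the regions below, therefore favours the step and only describes these regions. The call held in every alternative run, with a highest adjusted p of 0.0014. Its partner in experiment 6086 had log2 changes against DMSO of -1.66 (2 h), -2.23 (4 h) and -3.34 (24 h).

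Next in size was chr5:170008193-170008593, with 4.99 and 6.29 CPM at 2 h, against 12.7 and 9.83 CPM at 1 h (log2 change -0.99, SE 0.17, edgeR adjusted p = 0.0029). The DMSO libraries had 21.1 and 23.1 CPM, so about as much was lost on the log2 scale in the second hour as by 1 h (-0.98 against DMSO). The region at chr2:45070233-45070633 had 6.09 and 4.99 CPM at 2 h, against 11.8 and 10.5 CPM at 1 h and 19.4 and 17.1 CPM in DMSO (step -0.99, SE 0.17, adjusted p = 0.0025). At chr12:66997804-66998204, outside the stretch, the 2 h libraries had 4.40 and 5.79 CPM, against 10.7 and 9.12 CPM at 1 h and 20.7 and 19.0 CPM in DMSO (step -0.96, SE 0.18, adjusted p = 0.0050). At 2 h these 3 regions had log2 changes of -1.97, -1.71 and -1.98 against DMSO, with no overlap between 2 h and 1 h. The call of chr5:170008193-170008593 was lost without either 2 h library and without 1 h library A, that of chr2:45070233-45070633 without 2 h library B, and that of chr12:66997804-66998204 without any 1 of the 4 libraries compared.

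The other losses named had reached different depths at 1 h. At chr11:20297678-20298078 there were 5.84 and 5.79 CPM at 2 h, against 11.04 and 11.04 CPM at 1 h and 23.2 and 19.0 CPM in DMSO. The region chr15:70678933-70679333 had 5.25 and 5.09 CPM at 2 h, against 9.03 and 10.4 CPM at 1 h and 14.4 and 13.3 CPM in DMSO. At chr5:31133607-31134007 the values were 10.1 and 8.98 CPM at 2 h, against 20.3 and 15.6 CPM at 1 h and 25.9 and 24.8 CPM in DMSO. The step in these 3 regions was -0.92, -0.91 and -0.90, more than the -0.51 that the last 2 of them had reached at 1 h against DMSO and close to the -0.94 of the first. The last of the 8, chr20:45134146-45134546, had 4.82 and 4.79 CPM at 2 h, against 8.82 and 8.95 CPM at 1 h and 11.6 and 10.3 CPM in DMSO, a step of -0.89 after a change of -0.30 at 1 h that was not called (adjusted p = 0.30). Its step was not called by DESeq2 (adjusted p = 0.12) or without any 1 of the 4 libraries. Calls of the other 3 were lost when 2 h library B was left out, and also without a 1 h library, which was library A for chr5:31133607-31134007 and library B for the other 2. DESeq2 also left chr15:70678933-70679333 uncalled (adjusted p = 0.061).

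**Figure D2:**
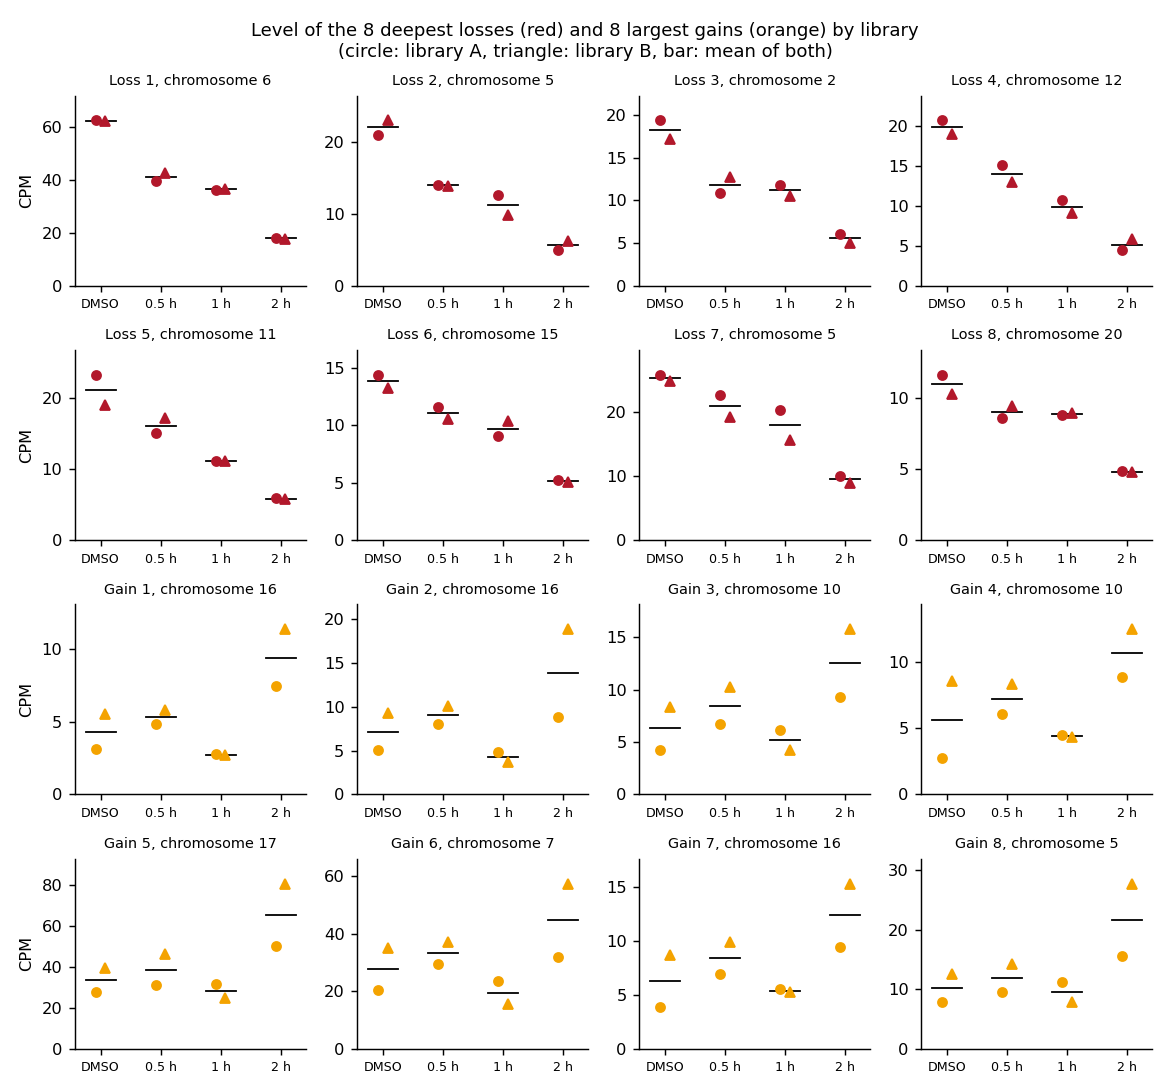
CPM of each library (circles for A, triangles for B, bars for the mean of both) in DMSO and at 0.5, 1 and 2 h of dTAG47 (left to right) for the 8 deepest losses and the 8 largest gains outside the chromosome 12 stretch. In the losses the 2 h points lie below every other group, as in loss 1 with 18.1 and 17.7 CPM, while in the gains library B is the highest 2 h point in each panel.

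The 129 losses lay on 22 chromosomes and were more abundant than most regions before the step. Their median level was 33.3 CPM in DMSO, 27.6 CPM at 0.5 h, 26.0 CPM at 1 h and 16.6 CPM at 2 h, where the medians of all regions were 18.3 to 18.5 CPM. The share called was higher among abundant regions. All regions were cut into 4 equal groups by count, and those of the stretch were then left out. From the lowest counts to the highest there were 14 (0.137%), 26 (0.257%), 34 (0.335%) and 55 (0.544%) losses. The part of the read count itself in being called was not tested. Both 2 h libraries lay below both DMSO libraries in 115 of the 129, against 23.8% of all regions, and 99 were called lower than DMSO at 2 h, where 4.92% of all regions were. At 1 h, 63 had already been called lower than DMSO, against 2.47% of all regions. The 2 h and 1 h libraries of these contrasts are the ones that chose the 129 regions, so these counts only describe them.

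The losses differed in where the 1 h libraries stood. In 81 regions both 1 h libraries lay below both DMSO libraries, with median levels of 14.3 CPM at 2 h, 23.6 CPM at 1 h and 35.2 CPM in DMSO. All 81 were called lower than DMSO at 2 h and 63 of them at 1 h. In 25 regions both 1 h libraries lay above both DMSO libraries, with medians of 22.6 CPM at 2 h, 32.5 CPM at 1 h and 27.3 CPM in DMSO, and 1 of the 25 was called lower than DMSO at 2 h. In the remaining 23 the 1 h and DMSO libraries overlapped, and 17 were called lower than DMSO at 2 h. The size of the step was alike in the 3 kinds, with medians of -0.63, -0.58 and -0.62. Across all regions, 21.3% had both 1 h libraries below and 20.9% had both above DMSO, and 25 of 129 is close to the latter share. The 1 h libraries also chose the 129, and a low step favours high 1 h values, so the kinds only describe these regions. At chr7:156931284-156931684, which alone of the 129 was called higher than DMSO at 1 h (log2 change 0.46, adjusted p = 0.022, with 0.22% of all regions so called), the levels were 32.9 and 28.8 CPM at 2 h, against 48.1 and 48.3 CPM at 1 h and 29.8 and 40.8 CPM in DMSO.

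Experiment 6086 gave the same regions a separate measurement at 2 h, and the kinds differed in it. Of the 129 losses, 74 had a single partner there by 50% reciprocal overlap, and 60 of the 74 (81.1%) were lower than DMSO at 2 h in 6086, against 5.42% of all 29639 matched regions. That experiment has no 1 h group, so the count concerns the 2 h level against DMSO and not the step. In the experiment of the step itself, 99 of the 129 were called lower than DMSO at 2 h. These included all 81 whose 1 h libraries lay below DMSO. The share over all matched regions is therefore not a like baseline for the losses. With a compared library left out, the losses then called that were lower in 6086 numbered 22 of 109 matched (without 2 h library A), 2 of 2 (without 2 h library B), 22 of 27 (without 1 h library A) and 9 of 10 (without 1 h library B). The count was also 60 at 4 h (7.11% of all matched regions) and at 24 h (23.3%). The median log2 change of the 74 was -0.93 at 2 h, while those of 4 h and 24 h were -1.22 and -1.60. Among the 58 matched regions whose 1 h libraries lay below DMSO, all 58 were lower at 2 h in 6086, by -0.46 to -1.84, and 57 were lower at 24 h. Among the 6 matched regions whose 1 h libraries lay above DMSO, 0 were lower at 2 h in 6086 by edgeR, and 0 had an unadjusted p under 0.05, with log2 changes of -0.09 to 0.08. Among the 10 of the overlapping kind, 2 were lower. Regions of 6086 overlapping the 25 had a median width of 873 bp, against 516 bp for those overlapping the 81 and 442 bp for all. With any overlap in place of 50%, all 25 had a partner and 0 were lower at 2 h in 6086 (0 at an unadjusted p under 0.05), against 79 of 79 where the 1 h libraries lay below DMSO. A difference between the kinds was not tested, since they were defined by the libraries that chose the regions. How many of these calls remained depended on the setting. DESeq2 called 2 of the 25 and 33 of the 81, and without 2 h library B edgeR called 0 of the 25 and 4 of the 81. It called 17 of the 25 and 34 of the 81 when 2 h library A was left out, 2 and 33 when 1 h library A was, and 1 and 17 when 1 h library B was.

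**Figure D3:**
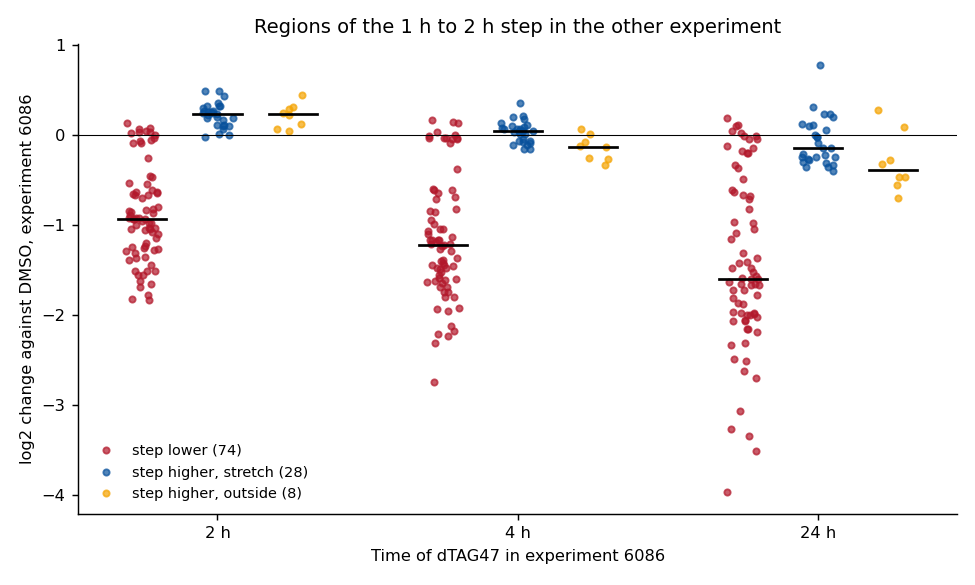
Log2 change against DMSO in experiment 6086 at 2, 4 and 24 h for matched regions that were lower in the step, higher inside the chromosome 12 stretch or higher outside it, with a point for each region and a line for the median. The 74 losses have medians of -0.93, -1.22 and -1.60, while the gains inside the stretch have medians of 0.23, 0.04 and -0.15 and those outside it 0.23, -0.13 and -0.40.

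Regions chosen in 6086 alone had also moved in the step. The 1606 matched regions lower than DMSO at 2 h in 6086 had a median step of -0.17 from 1 h to 2 h, and 87.0% of them had a negative step, against 0.0072 and 47.7% over all 29639 matched regions. Relative to the 1 h mean, 2 h libraries A and B each had a median of -0.17 over these regions, so both carried the decline equally. Few of these steps were called one by one, with 60 of 1606 (3.74%), against 0.25% of matched regions. The depth of the step followed the size of the loss in 6086. In the 118 regions with at least a 2-fold loss there, the median step was -0.49, all 118 steps were negative, 31 (26.3%) were called and both 2 h libraries lay below both 1 h libraries in 108 (91.5%). In the 484 regions with a 1.5- to 2-fold loss the median step was -0.27 and 25 (5.17%) were called, and in the 1004 with a smaller loss it was -0.11 with 4 (0.398%) called. Against the DMSO mean, the libraries of the 118 regions had medians of -0.45 and -0.42 at 0.5 h, -0.75 and -0.79 at 1 h, and -1.26 and -1.22 at 2 h, with no overlap between the times.

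Regions that 6086 called later moved less in this hour. The 676 regions first lower at 4 h in 6086 had a median step of -0.06, with 0 called lower by edgeR or DESeq2 (43 and 15 at an unadjusted p under 0.05). Over all matched regions edgeR called 0.25% lower. Of the 676, 67.9% had a negative step and 32.1% had both 2 h libraries below both 1 h libraries, against 17.1% of all matched regions. The 4842 lower only at 24 h had a median of 0.03, with 1 called lower (0.0207%, against 0.25% of all matched regions) and 12 called higher (0.248%, against 0.121%). The stretch held 16 of the 4842. Matched gains of the step that were lower at 24 h, with or without an earlier call, numbered 9 in the stretch and 6 outside it. The 345 regions higher at 2 h in 6086 had a median step of 0.11. Of these, 17.7% had a negative step, 47.5% had both 2 h libraries above both 1 h libraries, against 19.7% of all matched regions, and 5 (1.45%) were called higher. Of the 5, 3 lay in the stretch, which held 11 of the 345, and 2 lay outside it. The 420 regions first higher at 4 h had a median of 0.09, with 22.4% negative and 40.0% with both 2 h libraries above both 1 h libraries, and the 3138 higher only at 24 h one of 0.05. The median of the 18612 regions called at no time in 6086 was 0.0043, which lies close to the value over all matched regions.

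**Figure D4:**
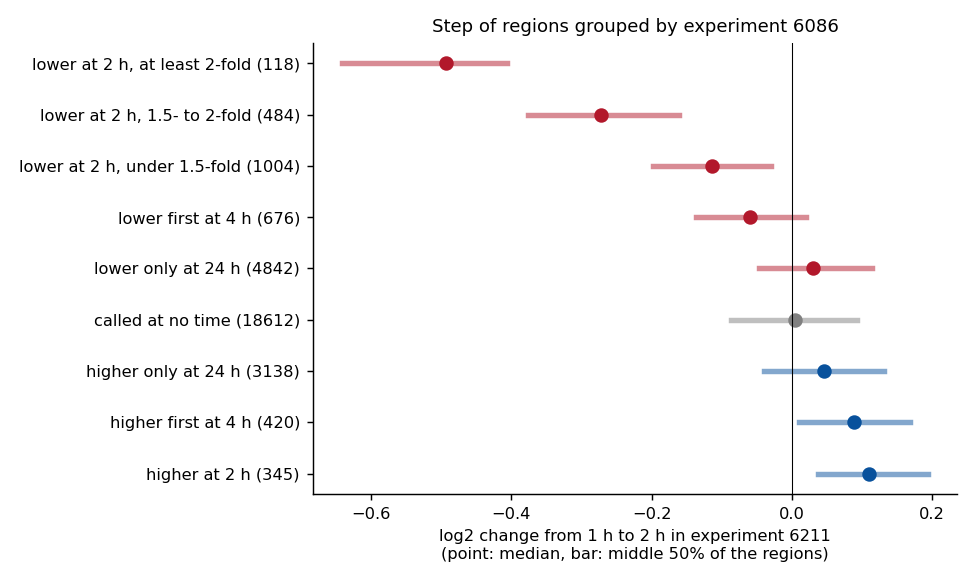
Log2 change of 2 h against 1 h in experiment 6211 for matched regions grouped by when and how they were called against DMSO in experiment 6086, with points for medians and bars for the middle 50% of regions. Medians run from -0.49 in the 118 regions with at least a 2-fold loss at 2 h in 6086 to 0.11 in the 345 regions higher at 2 h there.

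The regions with the deepest losses at 24 h in 6086 were all lower at 2 h than at 1 h, whether or not the step was called. These are chr5:170008193-170008593, chr12:66508872-66509272, chr6:44628192-44628592, chr4:129503659-129504059 and chr12:66634827-66635227, with log2 changes of -3.97 to -3.27 at 24 h. At chr12:66508872-66509272, outside the stretch, the libraries had 6.60 and 4.79 CPM at 2 h, against 9.89 and 10.8 CPM at 1 h and 20.5 and 21.7 CPM in DMSO (step -0.85, SE 0.17, adjusted p = 0.0098), a call that DESeq2 did not make (adjusted p = 0.063) and that was lost when library B of either time was left out. At chr12:66634827-66635227 they had 6.26 and 4.59 CPM at 2 h, against 9.75 and 9.23 CPM at 1 h and 19.8 and 21.7 CPM in DMSO (step -0.79, SE 0.17, adjusted p = 0.021). This call was lost in 6 of 18 alternatives, namely DESeq2 (adjusted p = 0.13) and the fits without 2 h library B, either 1 h library or either 0.5 h library. The exception was chr4:129503659-129504059, with 5.33 and 7.09 CPM at 2 h, against 9.75 and 8.07 CPM at 1 h and 23.3 and 18.4 CPM in DMSO, where the step of -0.52 (SE 0.18) was not called (adjusted p = 0.30). Most of its decline by 2 h was already present at 1 h. The 3 regions with the largest gains at 24 h in 6086 had steps that were not called. At chr14:44897701-44898101 there were 13.1 and 11.7 CPM at 2 h, against 9.96 and 9.56 CPM at 1 h (step 0.35, SE 0.15, adjusted p = 0.48). At chr20:4854021-4854421 the levels were 17.3 and 17.5 CPM at 2 h, against 16.5 and 15.4 CPM at 1 h (step 0.12, SE 0.12, adjusted p = 0.86). At chr9:118862118-118862518 they were 9.90 and 12.1 CPM at 2 h, against 10.6 and 8.02 CPM at 1 h, so the groups overlapped (step 0.25, SE 0.17, adjusted p = 0.76).

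The gains outside the stretch were fewer and larger, and they moved with single libraries. How uniquely reads can be placed in these regions was not analysed here. The largest was chr16:46391136-46391536, with 7.45 and 11.4 CPM at 2 h, against 2.80 and 2.69 CPM at 1 h (log2 change 1.76, SE 0.25, edgeR adjusted p = 0.0010), or 3.39-fold more. The 0.5 h libraries had 4.82 and 5.81 CPM and the DMSO libraries 3.11 and 5.55 CPM, so the 1 h libraries lay below the DMSO libraries as well. Its neighbour chr16:46391825-46392225 had 8.80 and 18.9 CPM at 2 h, against 4.80 and 3.73 CPM at 1 h (1.69, SE 0.28, adjusted p = 0.0020), and DMSO had 5.03 and 9.32 CPM. Here 2 h library A, at 8.80 CPM, was below DMSO library B and below 0.5 h library B (10.1 CPM). The same overlap with DMSO did not occur at chr17:41400785-41401185, where there were 50.1 and 80.8 CPM at 2 h, against 31.6 and 24.99 CPM at 1 h and 27.7 and 39.4 CPM in DMSO (1.21, SE 0.18, adjusted p = 0.0010). At chr7:61970208-61970608 the levels were 31.8 and 57.4 CPM at 2 h, against 23.4 and 15.4 CPM at 1 h and 20.6 and 35.0 CPM in DMSO (1.20, SE 0.22, adjusted p = 0.0040). Again 2 h library A lay below DMSO library B and below 0.5 h library B (37.0 CPM).

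The other gains named had the same order of libraries. These were chr10:42385047-42385447 with 9.31 and 15.8 CPM at 2 h, against 6.16 and 4.28 CPM at 1 h, and chr10:42599427-42599827 with 8.88 and 12.5 CPM at 2 h, against 4.52 and 4.34 CPM at 1 h. They also included chr16:46403517-46403917 with 9.39 and 15.3 CPM at 2 h, against 5.52 and 5.22 CPM at 1 h, and chr5:34191381-34191781 with 15.6 and 27.8 CPM at 2 h, against 11.2 and 7.91 CPM at 1 h. The log2 changes of these 4 were 1.18 to 1.27 (adjusted p of 0.0070 to 0.033). Library B at 0.5 h was above 2 h library A at chr10:42385047-42385447 (10.2 CPM) and chr16:46403517-46403917 (9.89 CPM). It was below 2 h library A at chr10:42599427-42599827 (8.34 CPM) and chr5:34191381-34191781 (14.3 CPM). DMSO library B had 8.38, 8.56, 8.66 and 12.6 CPM in the order named, below 2 h library A in each. The log2 changes of the 8 without 2 h library B ranged from 0.72 to 1.44, and they were 1.06 at chr16:46391825-46392225, 0.73 at chr7:61970208-61970608 and 0.72 at chr5:34191381-34191781. All 8 calls were lost when library B of either time was left out, and 7 of the 8 in DESeq2, the exception being chr16:46391136-46391536 (adjusted p = 0.00055). Of the 21 gains, 19 were called higher than DMSO at 2 h (1.97% of all regions). The same 2 h libraries chose the 21 regions, so this count only describes them. In 20 of the 21 the level was higher in library B than in library A at 2 h, and 17 had one order of letters in all 4 groups, with B above A in DMSO and at 0.5 and 2 h and A above B at 1 h. That order, taken from the library medians of the stretch, held in 4.59% of all regions outside the stretch and in 3 of the 129 losses. Of the 8 gains with a partner in 6086, 2 were higher at 2 h there, against 1.16% of all matched regions, 0 were higher at 4 h by edgeR (1.87% of all matched regions, and 0 of the 8 at an unadjusted p under 0.05), while at 24 h 6 were lower (23.3%) and 1 was higher (12.1%), with medians of 0.23, -0.13 and -0.40 at 2, 4 and 24 h.

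In the stretch of chromosome 12 accessibility was higher at 2 h than at 1 h over many neighbouring regions. Of the 250 regions, 112 (44.8%) were higher, the median log2 change was 0.41 with a range of -0.25 to 1.53, and 187 (74.8%) had both 2 h libraries above both 1 h libraries. The largest gain was chr12:58173905-58174305, with 22.3 and 35.9 CPM at 2 h, against 12.8 and 7.52 CPM at 1 h (log2 change 1.53, SE 0.21, adjusted p = 0.00086). The DMSO libraries there had 11.5 and 16.6 CPM, below both 2 h libraries. At chr12:58162858-58163258 there were 26.3 and 42.0 CPM at 2 h, against 15.1 and 9.23 CPM at 1 h and 13.5 and 20.9 CPM in DMSO. At chr12:58552838-58553238 there were 17.4 and 24.4 CPM at 2 h, against 10.2 and 5.22 CPM at 1 h and 6.58 and 11.9 CPM in DMSO. At chr12:57554676-57555076 there were 20.2 and 33.8 CPM at 2 h, against 10.8 and 8.95 CPM at 1 h and 8.72 and 13.8 CPM in DMSO. In each of these 4 regions library B was the higher at 2 h and in DMSO and the lower at 1 h. All 4 calls were lost in DESeq2 and without 2 h library B or 1 h library B, and none of the 4 had a partner in 6086.

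Called regions of the stretch ran from 57390919 to 58712467 and were not evenly spread. Between 58 and 58.25 Mb 45 of 72 regions were higher, with a median of 0.77, and between 57.5 and 57.75 Mb 36 of 67, with a median of 0.56. Between these, from 57.75 to 58 Mb, 6 of 23 were higher and the median was 0.19. In the outermost 0.25 Mb at either end 0 of 24 regions were called higher by edgeR or DESeq2 (6 and 3 at an unadjusted p under 0.05). In the 2 Mb on either side 0 of 70 were called higher by edgeR or DESeq2 (1 unadjusted in each), with a median of -0.02. No other window of 2 Mb with at least 20 regions, of 762 in all, had a median outside -0.13 to 0.13, and none held more than 3 gains. The windows were laid out so that the stretch coincides with a window, so this ranking only describes it. The stretch also held the most regions of any window, 250 against at most 181 elsewhere. Rh30 is known to carry an amplified segment of the long arm of chromosome 12, and the copy number of the stretch was not analysed here. Called regions of the stretch had lower counts than those not called, with medians of 216 and 534 reads per library.

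The level of the stretch differed between libraries of the same group by up to 0.43 on the log2 scale, against 0.63 between the times. The per-library median over its regions, in log2 CPM, was 4.19 and 4.48 in DMSO libraries A and B, 4.41 and 4.61 at 0.5 h, 4.38 and 4.22 at 1 h, and 4.71 and 5.15 at 2 h, while the medians over all regions lay between 4.20 and 4.23. The 2 h libraries averaged 4.93 ± 0.30 and the 1 h libraries 4.30 ± 0.11 (SD, n = 2 each), which is the difference of 0.63. An exact two-sided permutation test gave p = 0.333, the smallest that 2 libraries against 2 allow, so the test cannot separate the groups. The difference was 0.41 when 2 h library B was left out. The 2 h libraries were the highest of the 8 and did not overlap any group, and library B exceeded library A by 0.43 at 2 h. The stretch took 1.53% (1.52 to 1.53) and 1.66% (1.65 to 1.67) of the reads at 2 h, against 1.40% (1.39 to 1.40) and 1.38% at 1 h and 1.34% and 1.45% in DMSO, with Wilson 95% intervals that cover counting error only. The letter order given for the gains outside the stretch was taken from these medians, so its counts inside the stretch only describe it. It held in 96 of the 112 called regions (85.7%) and in 17 of the 138 others (12.3%). The library with the highest level, 2 h library B, was the shallowest of the experiment, and the one with the lowest level of the 4 compared, 1 h library B, was the deepest. The part of depth in the result was not tested. Without 2 h library B, 0 regions of the stretch were called higher by edgeR (133 at an unadjusted p under 0.05), and without 1 h library B 1 was (153 unadjusted). There were 118 without 2 h library A, 100 without 1 h library A, and 23 with DESeq2.

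**Figure D5:**
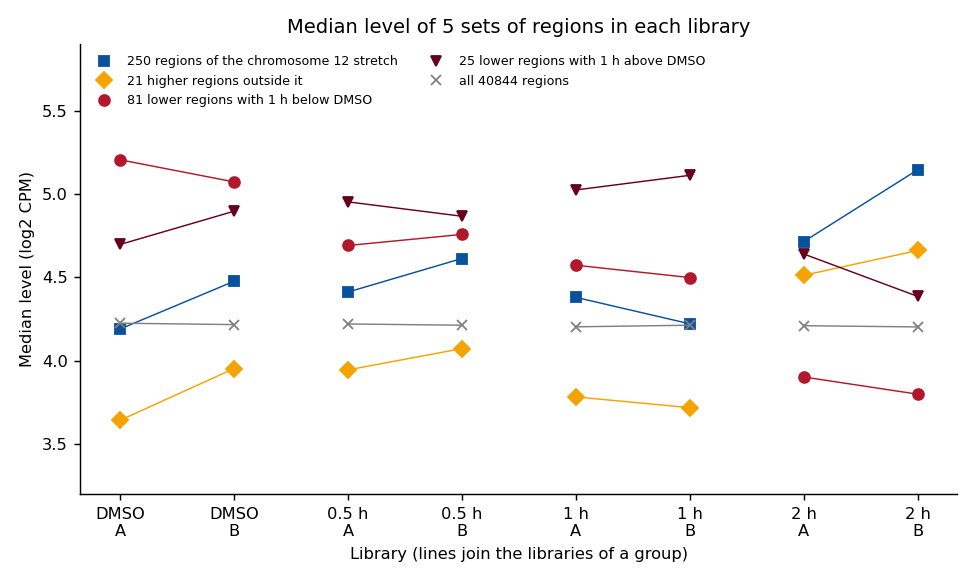
Median level per library (points, vertical axis, log2 CPM) over the regions of the chromosome 12 stretch, the 21 gains outside it, the losses with 1 h below (81) or above (25) DMSO, and all regions, in DMSO and at 0.5, 1 and 2 h. In the stretch 2 h library B stands highest at 5.15, with 2 h library A at 4.71 and the 1 h libraries at 4.38 and 4.22.

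In experiment 6086 the level of the stretch at 2 h overlapped that in DMSO. Its 213 regions there had per-library medians of 20.1 and 21.0 CPM at 2 h, against 21.3 and 19.6 CPM in DMSO. At 2 h, 17 of the 213 (7.98%) were higher than DMSO, against 0.978% of all regions of 6086, and 8 (3.76%) were lower, against 4.25%, with a median log2 change of 0.08. At 24 h 22 (10.3%) were higher, against 13.6% of all, and 54 (25.4%) were lower, against 18.6%. Of the 112 gains of the step, 28 had a partner in 6086 by 50% overlap. The median step of the 28 was 0.75, against 1.11 for the 112. At 2 h in 6086, 3 of the 28 (10.7%) were higher than DMSO and 0 were lower. That share was close to the 11 of 101 (10.9%) among all matched regions of the stretch, against 1.16% of all matched regions. At an unadjusted p under 0.05 in edgeR, 17 of the 28 (60.7%) were higher and 0 lower. The share higher was 34.7% over matched regions of the stretch and 7.82% over all matched regions. The median log2 change of the 28 was 0.23 at 2 h, 0.04 at 4 h and -0.15 at 24 h. Experiment 6086 has no 1 h group, so the step itself was not measured in it.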

How the data were processed

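The libraries are ATAC-seq of Rh30 cells whose PAX3-FOXO1 carries an FKBP tag. The 2 deposited tables used hold raw read counts per region, made by the authors, with whole numbers and a different total in each library. The builds hg19 and dm3 and the tools deepTools, DESeq2, DiffBind, Genrich 0.6.1, Bowtie2 and Trimmomatic 0.32 appear in the submitters' processing notes with no role. Coordinates are taken as hg19. For duplicates, mitochondrial reads and the transposase offset, the treatment was not given in the sources used here. None of the 6 deposited comparison tables was used.

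Columns were assigned to groups by the treatment and time that name them. A and B in those names were not tied to the labels' replicate numbers and only tell libraries apart. Counts of replicate libraries differed by more than sampling noise (chi-square per degree of freedom 1.87 at 2 h and 2.66 at 1 h), so none were merged.

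The 8 libraries of experiment 6211 were fitted together in edgeR 4.0.16 under R 4.3.3 (TMM, filterByExpr, quasi-likelihood, group means), and 2 h was contrasted with 1 h. The 8 libraries of 6086 were fitted likewise against DMSO. Calls were made under 0.05 after Benjamini-Hochberg adjustment over all regions. Standard errors were derived from the log2 change and its F statistic (size over root F). In 6211 the biological coefficient of variation came to 5.96%. The fit was tested on simulated data with 200 changed regions. Counts were drawn independently there, so a difference shared by many regions of a library was not covered. The filter kept all 40844 regions. Regions were matched with bedtools 2.31.1 at 50% reciprocal overlap with a single partner each. Tables and the permutation test used SciPy 1.17.1, NumPy 2.4.6 and pandas 2.3.3 in Python 3.11.15.

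Named regions were the 8 lowest and 8 highest steps outside the stretch and the 4 highest inside it, among called regions whose mean count was 30 or more and whose groups did not overlap in log-CPM (prior count 2), plus the 5 lowest and 3 highest matched regions at 24 h in 6086. The members, lists and tests were chosen with earlier results of these data known. Gene lists and sequences were not analysed here, since coordinates were not converted between builds. Alternatives were DESeq2 1.42.0, other scalings, a loess offset (limma 3.58.1), other filters, only the 4 libraries compared, the letters as a block, and each library left out.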

Additional observations from a re-analysis of the deposited data

How the results depend on the processing

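Several of the counts below moved strongly, most of all with a library left out. No median that answers a comparison changed sign, and a count of losses or gains cannot. DESeq2 called 43 losses, all outside the stretch, and 25 gains, 2 outside and 23 inside, against 129, 21 and 112 in edgeR. Leaving out each library of the experiment in turn gave 4 to 357 losses, which were all outside the stretch, and 0 to 157 gains, with 0 to 34 outside and 0 to 123 inside. The losses also lower at 2 h in 6086 numbered 2 (of 2 matched) to 22 (of 109 without 2 h library A) when a compared library was left out, against 60 of 74. The median step ranged from -0.20 to -0.14 in regions lower at 2 h in 6086 and from 0.0867 to 0.15 in those higher there, and it was -0.21 in the 1186 regions lower there at an adjusted p under 0.01. The stretch level differed by 0.41 to 0.84 with a library left out. Library size, median-ratio, upper 25% TMM, TMM without the stretch, loess, both filters and the fit of 4 libraries gave 104 to 182 losses and 130 to 142 gains, and the fit of 4 libraries, with 182, shared 123 of the 129. The median over all regions, near 0, was 0.012 by library size and 0.019 by upper 25% TMM. The replicate block on the letters gave 141 losses, 128 of them among the 129, and 141 gains. The A minus B differences correlated across regions by 0.066 between 2 h and 1 h, and by -0.052 to 0.21 over all pairs of groups, the highest being 1 h with DMSO. The letters are not tied to the labels' numbers. The 22 named regions that were called lost their call in 53 of 176 fits with a library left out and 15 of 220 under other settings. Without 2 h library B, which leaves 1 library at 2 h, the 8 named gains outside the stretch had log2 changes of 0.72 to 1.44. The 4 named in the stretch had 1.05 to 1.22.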

Other observations

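The losses of the step were spread over the genome. Chromosome 1 held 17, chromosome 17 held 13, and chromosomes 9 and 11 held 10 each, which is 0.369%, 0.561%, 0.445% and 0.486% of the regions counted on them. On chromosome 13, 0 of 688 regions were called lower by edgeR or DESeq2 (37 and 17 at an unadjusted p under 0.05). Over all 40844 regions edgeR called 129 (0.316%) lower, and 2256 were lower at an unadjusted p under 0.05. Within 100 kb of another loss lay 10 of the 129, in 5 pairs, and no window of 2 Mb held more than 4. The closest pair spanned 8.2 kb of chromosome 9, from 133346763 to 133354964. Its first region had 16.1 and 13.8 CPM at 2 h, against 25.4 and 23.0 CPM at 1 h and 33.6 and 36.9 CPM in DMSO. Its second had 19.8 and 19.1 CPM at 2 h, against 33.0 and 32.7 CPM at 1 h and 48.3 and 44.0 CPM in DMSO. Both were chosen for their distance after the values were seen.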
